A study of Mus musculus with 6 samples.

Results

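Expression of the IL-6 receptor, JAK and STAT3 axis was read in splenic B cells that lacked the tetraspanin CD37. The axis was taken as 10 genes, chosen by their role but with earlier results of these data known. They include the cytokine gene Il6, the receptor chains Il6ra and Il6st, and the kinases Jak1, Jak2 and Tyk2. The transcription factor Stat3 and the feedback or target genes Socs3, Pim1 and Bcl3 complete the axis. All 10 were found among the 19935 genes measured, each through the brightest probe set that names it and no other gene. The samples were B cells from 3 CD37KO mice (genotype Cd37 -/-) and 3 wild-type (WT) littermates, with 1 array per mouse. Both groups had the C57BL/6J background and were 3 months old according to GEO's labels, which list no treatment. The methods give an older age range. The labels name no promoter or Cre that would limit the deletion to B cells. Spleen cells carrying CD43 were removed with magnetic beads. B220, a B-cell marker, was stained to judge how pure each isolation was, and those short of full purity could be used, so other spleen cells may remain.

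IL-6 binds its specific receptor chain, IL-6Rα, and the complex then engages gp130, the signalling chain encoded by Il6st that is shared with other cytokines of the family. Kinases of the JAK family bound to gp130 phosphorylate it and then STAT3, which moves to the nucleus and induces target genes, among them Socs3, whose product shuts the receptor off. Work in mice has placed CD37 as a restraint on IL-6 signalling in B cells. STAT3 activity depends on phosphorylation of the protein, which RNA arrays do not measure.

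STAT3 binds DNA at the motif TTCNNNGAA, which reads the same on both strands. In the RefSeq promoter windows of the GRCm38.p6 build (250 bases before to 50 after each start), all 10 genes were represented, and the motif occurred in 1 of their 11 windows, that of Socs3. Across all windows 8.3% held it. The stretches below show the Socs3 match, the 3 windows of listed STAT3 target genes outside the axis that held it (2 starts of Bcl6 and Icam1), and, for contrast, the bases just before the start of Il6st, the gene of the axis whose arrays separated by genotype. Capitals mark the motif. A match is a description of these letters and no evidence of binding.
Socs3 (chr11:117969491-117969541, minus strand): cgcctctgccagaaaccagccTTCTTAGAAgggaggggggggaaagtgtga
Bcl6, first start (chr16:23988941-23988991, minus strand): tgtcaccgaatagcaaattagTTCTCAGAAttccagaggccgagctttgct
Bcl6, other start (chr16:23981422-23981472, minus strand): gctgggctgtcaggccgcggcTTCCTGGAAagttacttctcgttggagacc
Icam1 (chr9:21015877-21015927, plus strand): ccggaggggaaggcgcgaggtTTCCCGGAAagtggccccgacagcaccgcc
Il6st (chr13:112463950-112464069, plus strand): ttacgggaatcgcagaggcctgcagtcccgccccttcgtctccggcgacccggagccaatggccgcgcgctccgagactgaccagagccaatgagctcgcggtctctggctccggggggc

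Levels are log2 values after RMA, the authors' background correction, normalisation and summary of each probe set. Cd37 itself averaged 8.16 ± 0.011 in CD37KO and 11.97 ± 0.13 in WT cells (SD, n = 3 each), a log2 difference of -3.80 (adjusted p = 1.37e-07 from limma), with the low level in the arrays labelled CD37KO. All 11 measured markers of mature B cells, such as Ms4a1 and Cd79a, were above background in every array. Background was set at a log2 level of 5.77, the 95th percentile of olfactory receptor genes. Markers of other cells differed between the samples. The mean log2 level of 15 neutrophil markers was 7.94, 6.63 and 7.24 in CD37KO arrays 1, 2 and 3, against 6.31, 6.13 and 6.37 in WT arrays 1, 2 and 3, with no overlap. For 13 of the 15 the unadjusted p from limma was under 0.05, each with the higher mean in CD37KO cells, as for 2.96% of all genes. After adjustment 0 of the 15 were called, and 7 of the 15 were above background in all 6 arrays. The mean of 19 macrophage and monocyte markers was 9.31, 8.18 and 9.31 in CD37KO and 9.19, 8.43 and 8.52 in WT arrays, which overlapped. Differences were positive for 18 of the 19, with a median of 0.19, beside 41.8% of all genes and 57% of those above background. For 10 of 13 T cell markers they were negative, with a median of -0.065, and the means of that list overlapped. The means of the dendritic cell list and of the stromal and endothelial list were lower in CD37KO arrays without overlap. For dendritic cells (9 genes) they were 6.56, 6.50 and 6.59 in CD37KO and 6.63, 6.65 and 6.61 in WT arrays. For stromal and endothelial cells (8 genes) they were 6.37, 6.38 and 6.34 in CD37KO and 6.60, 6.47 and 6.49 in WT arrays. In each list 3 genes were below background in all arrays. Differences were positive for 2 of the 9 and 1 of the 8 genes, and the largest stromal one was that of Igfbp7 (-0.71). In each list 3 genes were lower in CD37KO arrays without overlap, as 7.57% of all genes were. In bulk samples a change in the number of cells of a type and a change in RNA per cell cannot be told apart.

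Il6 was below background in all arrays and the other 9 genes were above it in all 6 arrays, as 49.5% of all genes were. With limma, 0 of the 10 genes were called at an adjusted p under 0.05, where 0.0552% of all genes were (0.0251% higher and 0.0301% lower in CD37KO cells). Ordinary least squares called 0 as well. With an unadjusted p under 0.05 as the limit, Il6st alone was higher and none was lower, where 5.95% of all genes passed (2.96% higher and 2.99% lower). Il6st was also the one gene of the axis whose CD37KO arrays all lay above all WT arrays, as 4.33% of all genes did, and 11.9% of all genes had no overlap in one direction or the other. The median log2 difference over the axis was 0.029, against -0.019 over all genes and 0.017 over the 9874 genes above background in all 6 arrays. Among the axis genes 7 of 10 differences were positive, a share to be read against 41.8% of all genes and 57% of those above background.

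**Figure D1:**
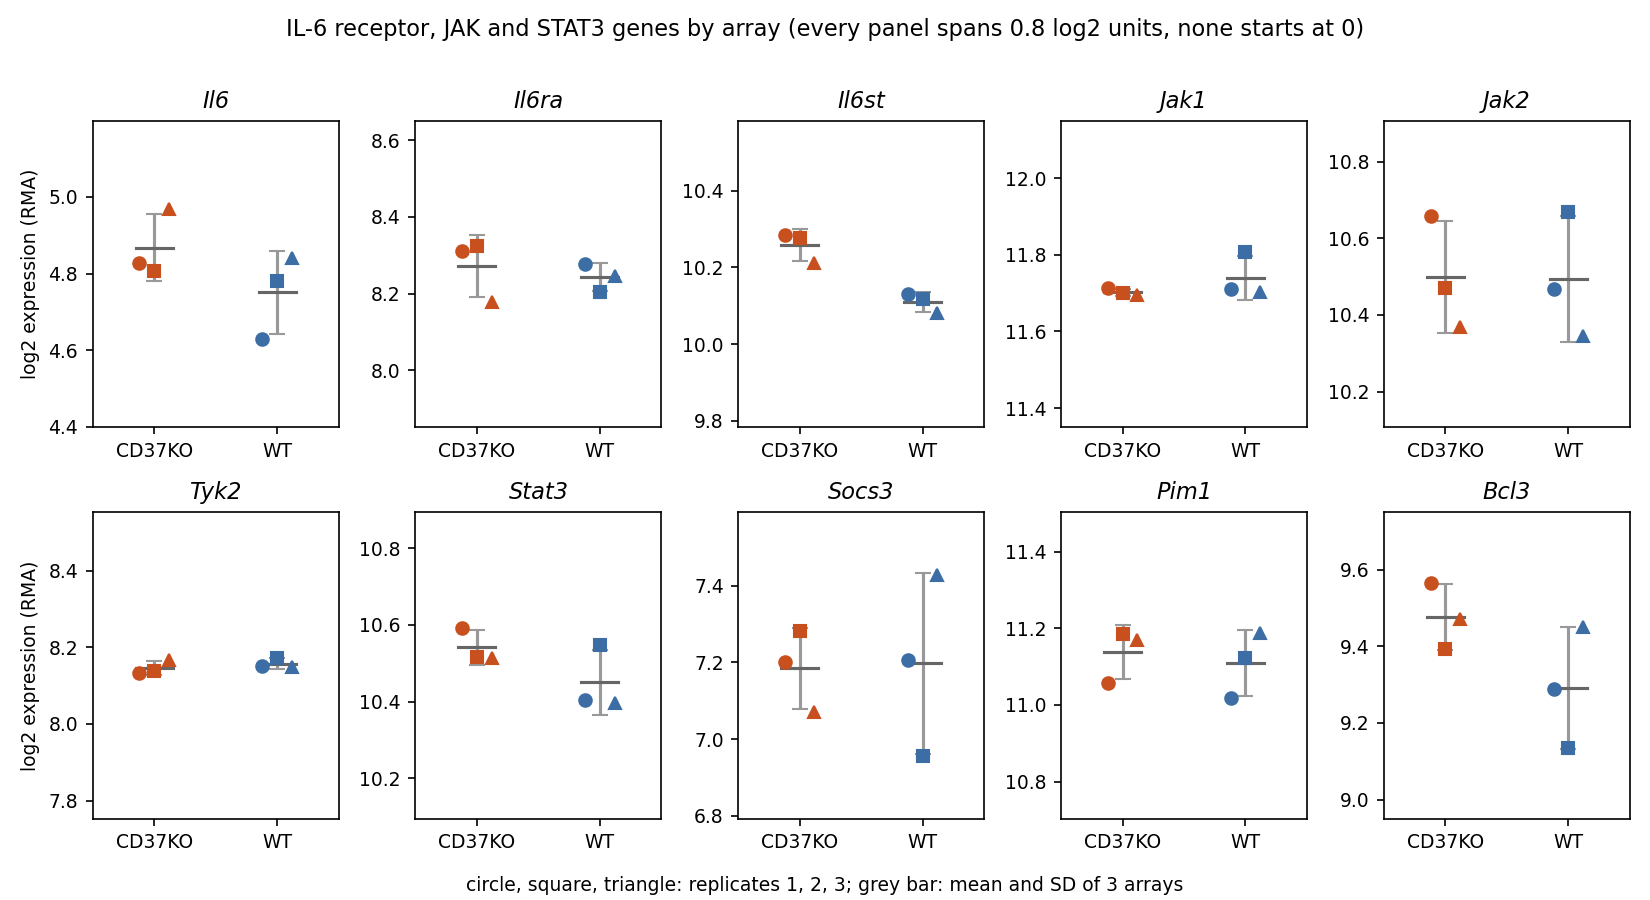
Log2 expression after RMA (y axis, 0.8 log2 units in each panel) of the 10 genes in 3 CD37KO and 3 WT arrays, with marker shapes for replicates 1 (circle), 2 (square) and 3 (triangle) and the mean and SD in grey. The groups separate only for Il6st, with CD37KO arrays between 10.21 and 10.29 and WT arrays between 10.08 and 10.13.

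Il6, the gene of the cytokine itself, was below background in every array of both genotypes. Its log2 level was 4.83, 4.81 and 4.97 in CD37KO and 4.63, 4.78 and 4.84 in WT arrays. The groups overlapped, and limma gave a log2 difference of 0.12 (95% interval -0.064 to 0.30, adjusted p = 0.810). It was 0.056 without WT replicate 1, 0.066 without CD37KO replicate 3 and 0.21 with array weights.

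Il6ra encodes the chain that binds IL-6. It was above background throughout, at 8.31, 8.32 and 8.18 in CD37KO and 8.28, 8.20 and 8.25 in WT arrays. CD37KO replicate 3 was the lowest of all 6, and the other CD37KO arrays were the highest. CD37KO minus WT came to 0.029 on the log2 scale (95% interval -0.12 to 0.18, adjusted p = 0.938 from limma). With an array omitted it ran from 0.0020 without CD37KO replicate 2 to 0.075 without CD37KO replicate 3.

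Il6st encodes gp130. Its log2 level was 10.29, 10.28 and 10.21 in CD37KO and 10.13, 10.12 and 10.08 in WT B cells, so the lowest CD37KO array stood above the highest WT array. The means were 10.26 ± 0.041 in CD37KO and 10.11 ± 0.026 in WT cells (SD, n = 3 each). This amounted to a log2 difference of 0.15, a fold of 1.11 (95% interval 0.014 to 0.28 on the log2 scale, unadjusted p = 0.0344, adjusted p = 0.801 from limma). A two-sided exact permutation test of this gene gave p = 0.10, the smallest that 3 arrays against 3 allow. With each array omitted in turn, the difference stayed between 0.13 and 0.17, and the unadjusted p from limma ranged from 0.0383 to 0.0922, passing 0.05 only without CD37KO replicate 3. The neutrophil marker means also separated by genotype. With them as a covariate the log2 difference was 0.14 (standard error 0.10, unadjusted p = 0.198 from limma), and with the macrophage and monocyte markers as a covariate it was 0.15 (standard error 0.065, unadjusted p = 0.0493 from limma). The part of these cells in the difference was not tested beyond these fits.

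The receptor-bound kinases showed overlapping groups throughout. Jak1 was at 11.71, 11.70 and 11.69 in CD37KO and 11.71, 11.81 and 11.70 in WT arrays, with WT replicate 2 above the rest. Its log2 difference was -0.038 (95% interval -0.18 to 0.099, adjusted p = 0.903 from limma), and it ran from -0.057 without WT replicate 3 to -0.0052 without WT replicate 2. Tyk2 was at 8.13, 8.14 and 8.17 in CD37KO and 8.15, 8.17 and 8.15 in WT arrays. These 6 values spanned little, and the log2 difference was -0.012 (95% interval -0.14 to 0.12, adjusted p = 0.970 from limma).

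Jak2 varied more between arrays of the same genotype than between the genotypes. It was at 10.66, 10.47 and 10.37 in CD37KO and 10.47, 10.67 and 10.34 in WT arrays. CD37KO replicate 1 and WT replicate 2 were the highest arrays, and the third replicate was the lowest in each group. On the log2 scale the groups differed by 0.0048 (95% interval -0.23 to 0.24, adjusted p = 0.992 from limma). The sign of this difference turned when CD37KO replicate 1, WT replicate 1 or WT replicate 3 was left out.

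Stat3, the transcription factor at the end of the cascade, was at 10.59, 10.52 and 10.51 in CD37KO and 10.40, 10.55 and 10.40 in WT B cells. WT replicate 2 reached above CD37KO replicates 2 and 3, and the other WT arrays lay below all CD37KO arrays. The Stat3 means differed by 0.091 on the log2 scale (95% interval -0.064 to 0.25, unadjusted p = 0.213, adjusted p = 0.817 from limma). This difference was 0.14 without WT replicate 2 (unadjusted p = 0.0663 from limma) and 0.065 without WT replicate 3 (unadjusted p = 0.431 from limma). With the neutrophil marker mean as a covariate it was 0.058 (standard error 0.12, unadjusted p = 0.629 from limma). With the macrophage and monocyte marker mean it was 0.094 (standard error 0.074, unadjusted p = 0.239 from limma).

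Socs3 encodes the feedback inhibitor that binds gp130 and the JAKs, and its window was the one with the STAT motif printed above. Its log2 level was 7.20, 7.28 and 7.07 in CD37KO and 7.21, 6.96 and 7.43 in WT arrays. The CD37KO values fell inside the WT range, and the WT spread was the wider (SD 0.11 in CD37KO and 0.24 in WT, n = 3 each). For Socs3 limma gave a log2 difference of -0.012 (95% interval -0.28 to 0.26, adjusted p = 0.985). Another probe set that names Socs3 was below background in all 6 arrays, between 5.52 and 5.66.

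Pim1, a serine/threonine kinase induced by cytokines, was at 11.06, 11.19 and 11.17 in CD37KO and 11.02, 11.12 and 11.19 in WT arrays. Replicate 1 was the lowest in both groups, which overlapped. Pim1 thus differed by 0.028 on the log2 scale (95% interval -0.13 to 0.19, adjusted p = 0.943 from limma).

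Bcl3, an IκB family protein that binds NF-κB in the nucleus, had the largest difference of the 10 genes. Its log2 level was 9.57, 9.39 and 9.47 in CD37KO and 9.29, 9.13 and 9.45 in WT arrays. WT replicate 3 lay between the CD37KO arrays, and the other WT arrays were below them all. The log2 difference was 0.19, a fold of 1.14 (95% interval -0.023 to 0.39 on the log2 scale, unadjusted p = 0.0750, adjusted p = 0.801 from limma). Without WT replicate 3 it was 0.27 (unadjusted p = 0.0169, adjusted p = 0.964 from limma), and without WT replicate 2 it was 0.11 (unadjusted p = 0.241 from limma). With the neutrophil marker mean as a covariate it was 0.017 (standard error 0.14, unadjusted p = 0.904 from limma). With the macrophage and monocyte marker mean it was 0.17 (standard error 0.093, unadjusted p = 0.113 from limma). Bcl3 lies on chromosome 7, as does Cd37, 395 places away in the order of measured genes.

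**Figure D2:**
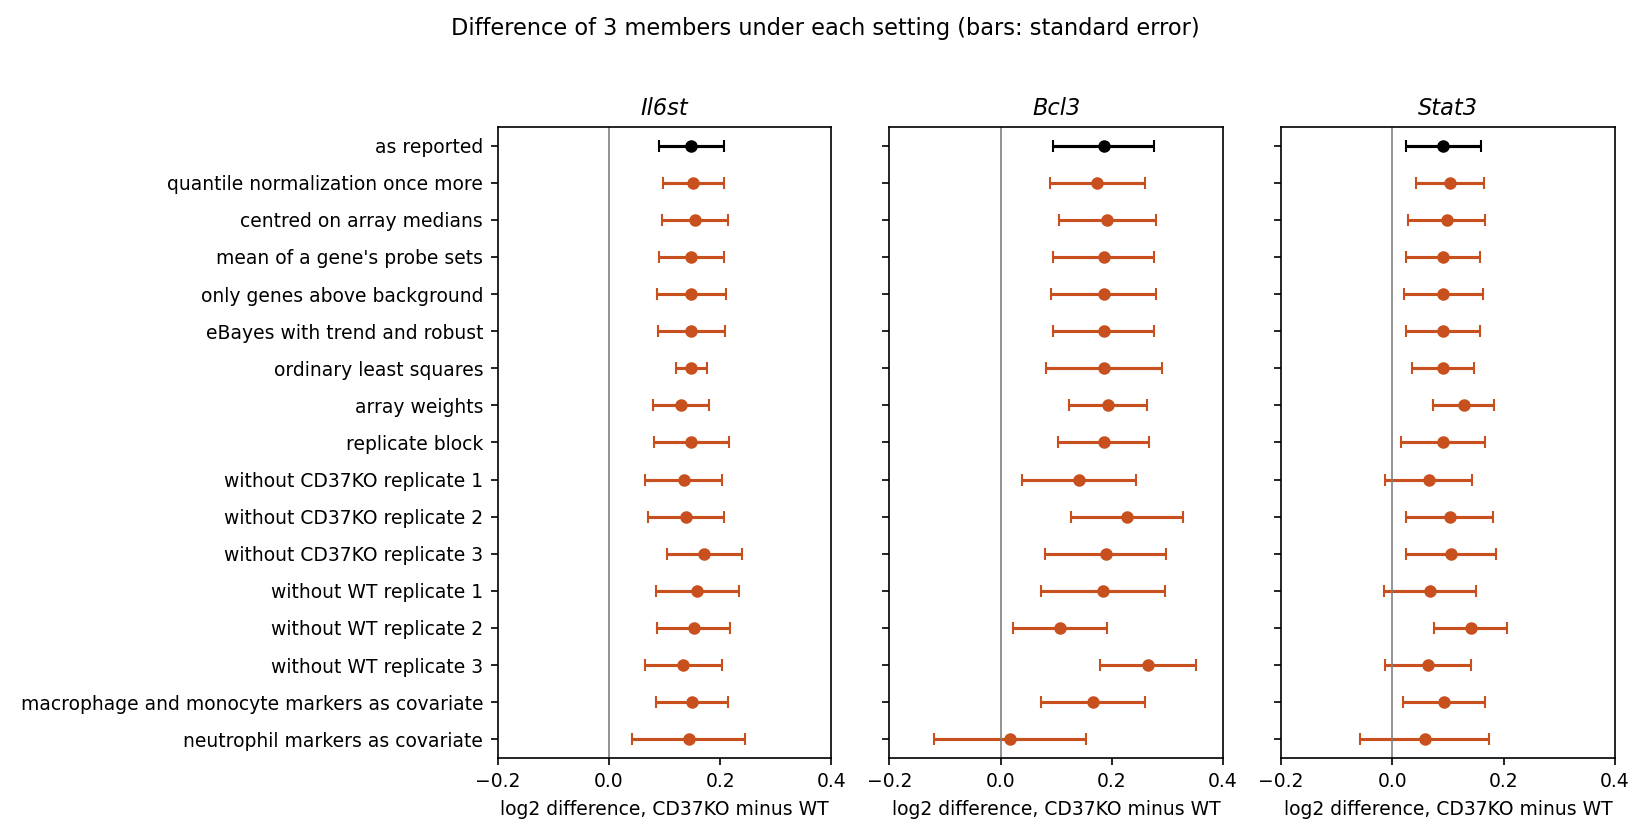
Log2 difference (CD37KO minus WT, x axis) of Il6st, Bcl3 and Stat3 in the reported fit (black) and under 16 other settings (orange), with the standard error as bars. The difference of Il6st stays between 0.13 and 0.17, whereas that of Bcl3 falls to 0.017 with neutrophil markers as a covariate.

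Beyond the 10 genes, wider lists of the pathway held 55 others, of which 50 were measured and 40 were above background in all arrays. Neither limma nor ordinary least squares called any of the 50 at an adjusted p under 0.05. With limma's unadjusted p under 0.05 as the limit, 3 of the 50 were higher (Osm, Bcl2l1 and Il10) and none was lower, beside 2.96% of all genes higher and 2.99% lower, and 0.0552% called after adjustment. The rest were not analysed here.

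Of the cytokines of the IL-6 family, Osm encodes oncostatin M, a product of myeloid cells. It was at 6.36, 6.09 and 6.07 in CD37KO and 5.96, 5.90 and 5.75 in WT arrays, near background. The CD37KO arrays were all above the WT arrays, as for 4.33% of all genes. For Osm this was a log2 difference of 0.30 (SE 0.096, unadjusted p = 0.0128, adjusted p = 0.801 from limma, and unadjusted p = 0.0553 by ordinary least squares). With neutrophil markers as a covariate it was 0.11 (standard error 0.14, unadjusted p = 0.446 from limma). With macrophage and monocyte markers it was 0.28 (standard error 0.094, unadjusted p = 0.0189, adjusted p = 0.950 from limma). Ebi3, the subunit shared by IL-27 and IL-35, Il27, Ctf1 and Clcf1 were above background with overlapping groups, and Il11 and Lif were below it in all arrays.

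Among the receptors of the gp130 family, Lifr, the leukaemia inhibitory factor receptor, was at 6.39, 6.55 and 6.42 in CD37KO and 6.31, 6.36 and 5.93 in WT arrays. The groups did not overlap, but WT replicate 3 was far below the others, and the log2 difference of 0.26 had an unadjusted p of 0.0566 from limma. Il27ra, the IL-27 receptor chain that pairs with gp130, had a log2 difference of -0.043 (adjusted p = 0.891 from limma). Osmr and Cntfr were below background in all arrays. Of the enzymes that shed IL-6Rα, Adam10 was at 9.99, 10.02 and 9.95 in CD37KO and 10.06, 10.11 and 10.11 in WT arrays, a log2 difference of -0.11 (unadjusted p = 0.104, adjusted p = 0.801 from limma) with no overlap, as 7.57% of all genes had in this direction. Adam17 differed by 0.010.

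The other 5 measured STAT genes were all above background, and their log2 differences ran from -0.066 for Stat6, the mediator of IL-4 signals, to 0.080 for Stat4, the mediator of IL-12 signals. Stat2, which acts in interferon signalling, differed by 0.016, Stat5a by -0.022 and Stat5b by 0.078. None had an unadjusted p under 0.05 from limma. The same held for all 17 measured inhibitors, among them the phosphatase genes Ptpn6, Ptpn11 and Ptprc and the Pias and Socs genes, whose median log2 difference was 0.011. Socs1 was below background in every array, and Cish and Socs2, which are known targets of STAT5, were near it.

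**Figure D3:**
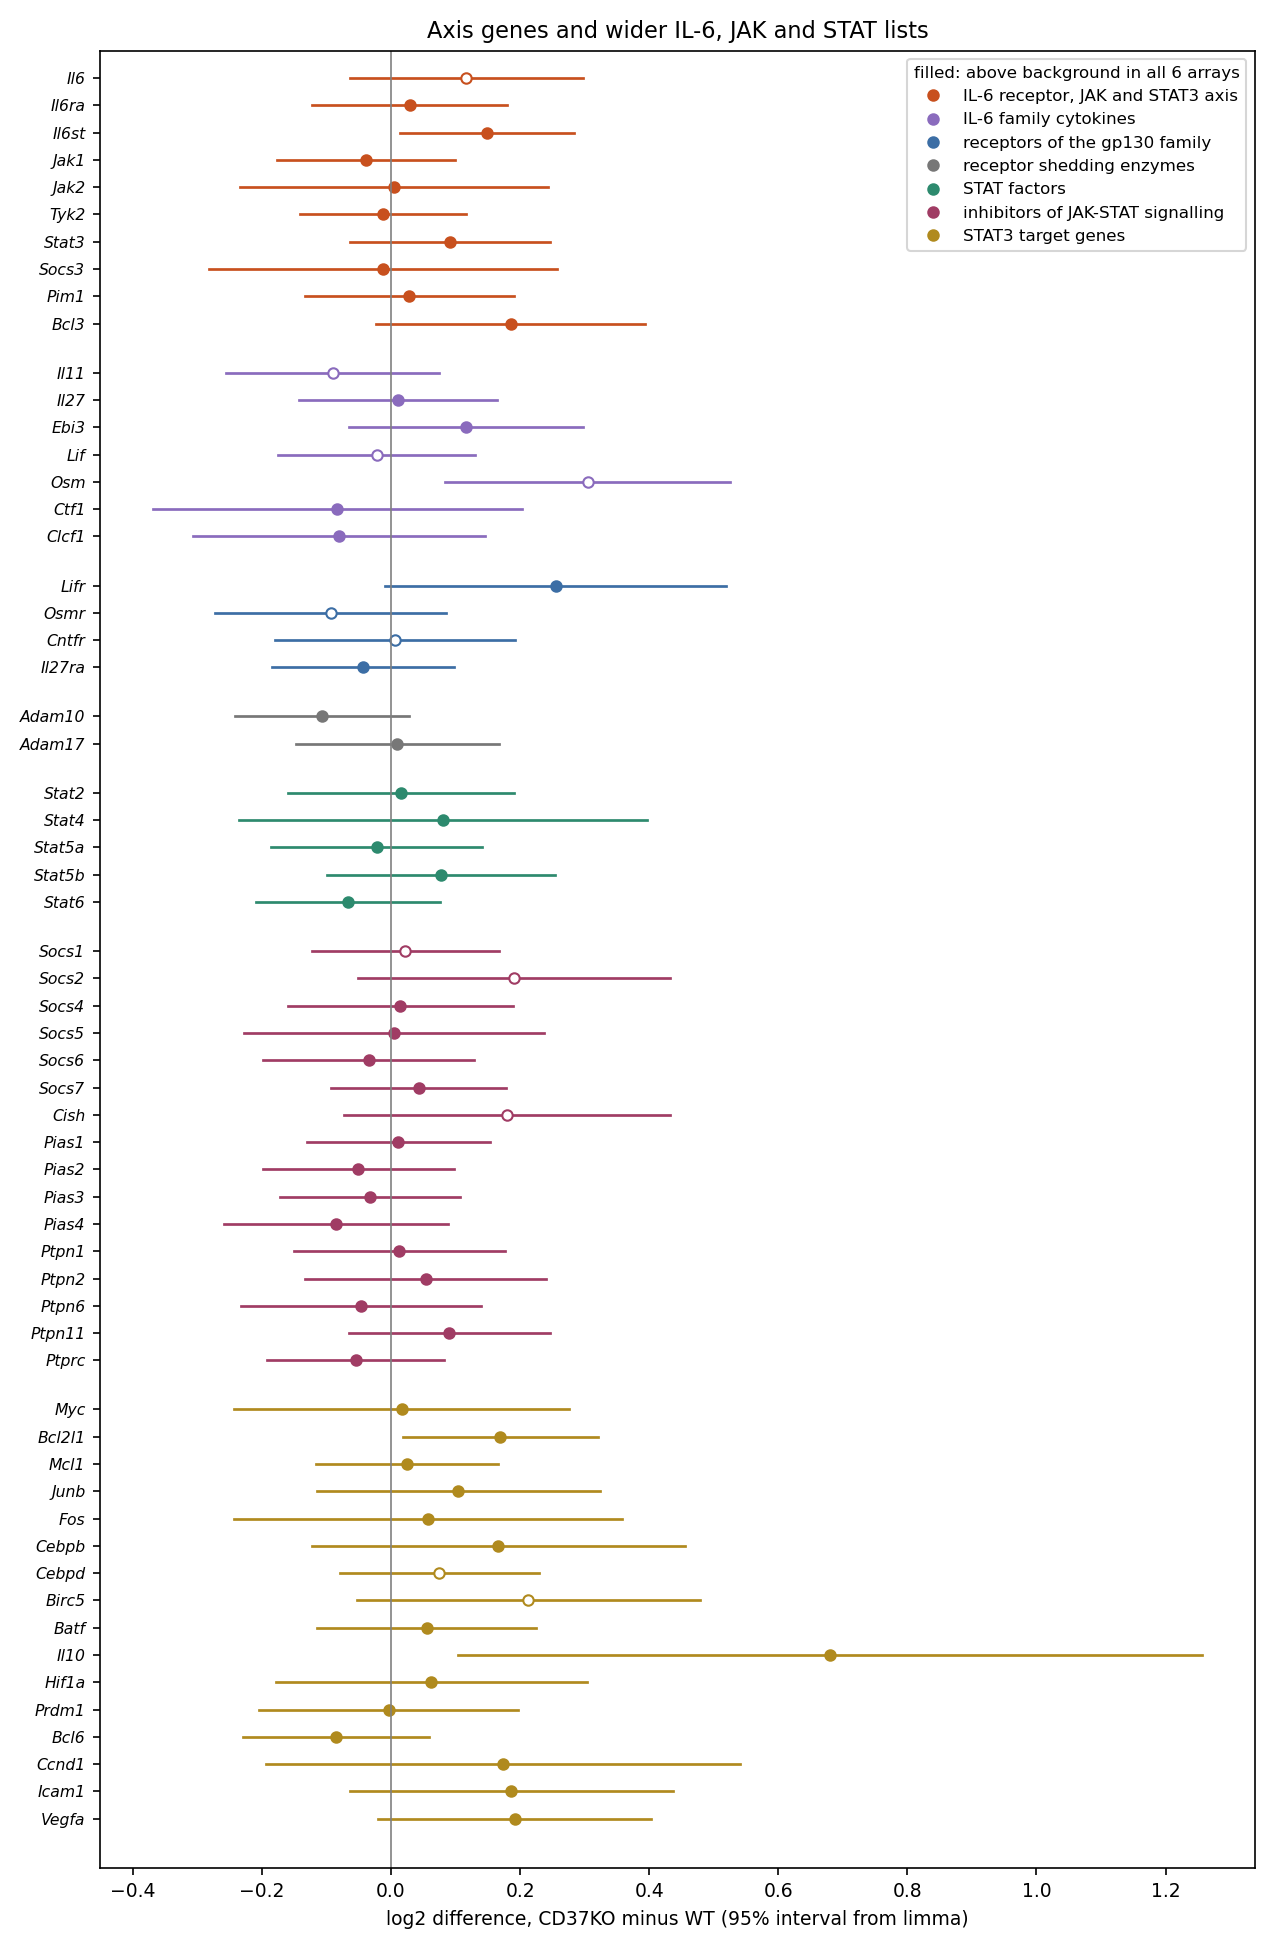
Log2 difference (CD37KO minus WT, x axis) with the 95% interval from limma for the 10 axis genes and the wider lists, coloured by list; filled points were above background in all 6 arrays. Intervals that leave out 0 belong to Il6st, Osm, Bcl2l1 and Il10, all on the positive side.

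The list of 22 STAT3 target genes, 5 of which belong to the axis, is described by its signs. Of the 22 differences, 18 were positive, with a median of 0.083 on the log2 scale, against 41.8% positive and a median of -0.019 for all genes. Among the 19 targets above background 16 were positive, with a median of 0.091, against 57% and a median of 0.017 for all genes above background. With neutrophil markers as a covariate 11 of 22 were positive, with a median of -0.00023. With limma 0 of the 22 were called after adjustment (0.0552% of all genes were). An unadjusted p under 0.05 was reached by 3 (Il10, Bcl2l1 and Il6st, which is itself a STAT3 target), all higher, as 2.96% of all genes were. Of the 17 targets outside the axis 14 differences were positive, with a median of 0.075. With neutrophil markers as a covariate 7 of these 17 were positive, with a median of -0.063. Their count was 11 without WT replicate 2 and 15 without CD37KO replicate 2. Il10 encodes IL-10, an anti-inflammatory cytokine made by B cells and myeloid cells. It was at 7.48, 6.28 and 6.98 in CD37KO and 6.20, 6.15 and 6.35 in WT arrays. CD37KO replicates 1 and 3 stood far above the rest, and CD37KO replicate 2 was inside the WT range. The log2 means of Il10 were 0.68 apart (SE 0.25, unadjusted p = 0.0260, adjusted p = 0.801 from limma). It was 1.00 without CD37KO replicate 2 (adjusted p = 0.0776 from limma) and 0.40 without CD37KO replicate 1 (unadjusted p = 0.0728 from limma). Without CD37KO replicate 3, WT replicate 1 or WT replicate 2 its unadjusted p from limma was between 0.0593 and 0.0690, and with trend and robust eBayes it was 0.0608. By ordinary least squares, which uses the variance of this gene alone, the unadjusted p was 0.127. The SD of Il10 was 0.60 in CD37KO and 0.10 in WT arrays (n = 3 each).

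Bcl2l1 encodes the survival protein BCL-XL. It was at 6.10, 6.04 and 6.00 in CD37KO and 5.92, 5.92 and 5.79 in WT arrays, close to background. The groups did not overlap, as for 4.33% of all genes in this direction. The log2 difference was 0.17 (standard error 0.066, unadjusted p = 0.0326, adjusted p = 0.801 from limma). The unadjusted p from limma was between 0.0522 and 0.114 without CD37KO replicate 1, CD37KO replicate 2, WT replicate 1 or WT replicate 3, and it was 0.0537 with trend and robust eBayes. With neutrophil markers as a covariate the log2 difference was 0.13 (standard error 0.11, unadjusted p = 0.277 from limma). With macrophage and monocyte markers it was 0.16 (standard error 0.072, unadjusted p = 0.0523 from limma). Other targets at high levels had overlapping groups. Myc differed by 0.017, Mcl1, another survival gene, by 0.025, and Bcl6, the repressor of germinal centre B cells, by -0.085. Icam1, an adhesion molecule whose window is printed above, differed by 0.19 (unadjusted p = 0.126 from limma), with CD37KO arrays at 8.54, 8.33 and 8.80 and WT arrays at 8.38, 8.38 and 8.34.

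The count for the target list moved with the neutrophil markers. In the fit with their mean as a covariate, where 11 of 22 differences were positive, 42.7% of the genes above background were. With the macrophage and monocyte markers as a covariate 17 of 22 were positive, with a median of 0.072. The count of positive differences was 15 to 19 as each array was omitted, with 15 without WT replicate 2. With the macrophage and monocyte covariate, the log2 difference of Il10 was 0.55 (standard error 0.18, unadjusted p = 0.0171, adjusted p = 0.950 from limma). With the neutrophil covariate it was -0.22 (standard error 0.12, unadjusted p = 0.108 from limma). This covariate itself separates the genotypes, so it and the loss of CD37 cannot be told apart fully with 6 arrays.

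**Figure D4:**
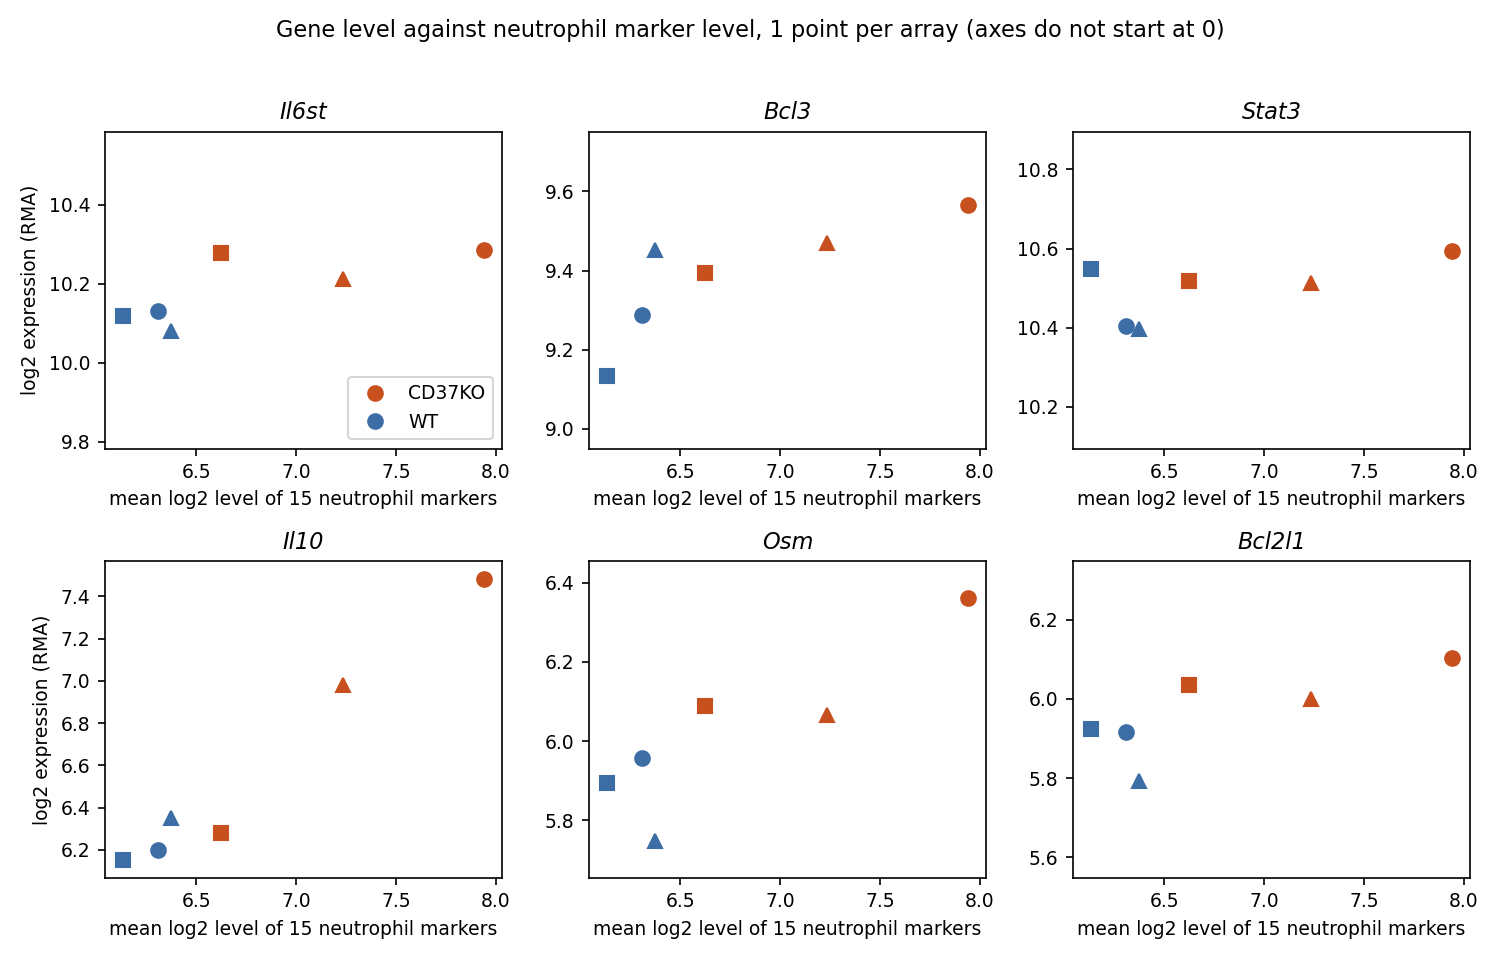
Log2 expression after RMA (y axis) of Il6st, Bcl3, Stat3, Il10, Osm and Bcl2l1 against the mean log2 level of 15 neutrophil markers (x axis), with CD37KO arrays in orange and WT arrays in blue, and marker shapes for replicates 1 (circle), 2 (square) and 3 (triangle). Il10 is highest in the CD37KO arrays with the most neutrophil signal (7.48 and 6.98) and Il6st is at 10.29, 10.28 and 10.21 in CD37KO replicates 1, 2 and 3.

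For the 3 genes of the axis that varied most over the arrays, the nearest profiles were sought by the root mean square distance between log2 levels centred on each gene's mean, over 6 arrays and all genes above background. Socs3 lay nearest to Zfp691 (distance 0.027), a zinc finger gene, then Imp3 (0.032), a component of ribosomal RNA processing, and Atxn7l3b (0.032). All of these had their highest value in WT replicate 3 and their lowest in WT replicate 2. Bcl3 lay nearest to Vpreb3 (0.032), a gene of the B-cell lineage, then Cstf1 (0.033), of messenger RNA 3' end formation, and Gpn2 (0.034). Jak2 lay nearest to Zfp62 (0.016), Tatdn1 (0.020) and Eif2ak3 (0.024), the kinase PERK of the unfolded protein response. These are matches over 6 arrays among 9874 genes and were not tested.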

How the data were processed

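RNA from splenic B cells of 3 CD37KO and 3 WT mice was hybridised to Affymetrix mouse gene arrays. The values deposited by the authors are on the log2 scale, 1 per probe set, after RMA. The submitters' notes name the build mm8 and no software version. Of 35361 probe sets, 21780 named a single gene, 1605 several and 11976 none in the annotation used, and the brightest of each gene was kept (19935 genes). Symbols were updated by Entrez ID through the GRCm38.p6 gene table, and 91 probe sets whose ID was not in it kept the array's symbol. Mean levels of 1015 olfactory receptor genes set the background line, at their 95th percentile. No filter on dim genes was applied. RMA compresses low signals, so small values understate differences of the RNA.

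The groups were compared in R 4.3.3 by limma 3.58.1, using lmFit with eBayes. Its two-sided p-values were adjusted by Benjamini-Hochberg across every gene measured. The number of arrays limits precision. In data simulated for CD37KO over WT with 200 changed genes among 19935, a log2 change of 0.25 was detected for 2% of genes. One of 0.5 was detected for 64% and one of 1 for 92%, and 9 unchanged genes were called. The data themselves gave 11 called genes. The limit after adjustment may thus be stricter in them, and the simulated shares too high. The genes of the axis and all lists were chosen with earlier results of these data known, and no test was made over a list. Named were the axis genes, Cd37, list genes at an unadjusted p under 0.05, expressed receptors, JAKs and STATs, the nearest profiles and a few markers. The remaining genes, such as Adam10, Socs1, Myc, Mcl1, Bcl6 and Icam1, were chosen after their values were seen. Alternatives were another quantile normalisation, median centring, the mean of probe sets, only genes above background, other variance models, array weights, a block on replicate number, omission of each array in turn, and marker means as covariates. Promoter windows came from RefSeq (GRCm38.p6). They and the files' build differ, and no array coordinates are given.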

Additional observations from a re-analysis of the deposited data

How the results depend on the processing

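None of the 10 axis genes and none of the other 50 pathway genes passed an adjusted p under 0.05 under any of the 16 alternatives. Differences of Il6 (not tested among genes above background), Il6st, Stat3 and Bcl3 stayed positive and those of Jak1 and Tyk2 negative throughout. Il6ra turned to -0.017 with another quantile normalisation and -0.0098 with array weights, Jak2 to -0.093 with neutrophil markers as a covariate, Socs3 to 0.0029 with macrophage and monocyte markers and Il10 to -0.22 with neutrophil markers. With each array omitted in turn, Jak2 ranged from -0.075 to 0.093, Pim1 from -0.017 to 0.068 and Socs3 from -0.13 to 0.10. Over all genes, 5 were higher and 6 lower in CD37KO cells. These counts were 2 and 1 by ordinary least squares, 9 and 10 with array weights, 3 and 1 with the replicate block, and 1 and 1 with neutrophil markers, while macrophage and monocyte markers gave 8 higher. Leaving out 1 array gave 3 to 12 higher and 1 to 2 lower, with 12 higher without CD37KO replicate 2. The causes were not tested. With limma's unadjusted limit, 1 axis gene passed in the reported comparison, 4 (Il6, Il6st, Stat3 and Bcl3) with array weights, where 17.4% of all genes passed, 0 with the replicate block, 0 with neutrophil markers and 0 to 1 with an array omitted. The replicate block put Il6st at an unadjusted p of 0.0658 from limma. Of the other pathway genes 3 passed that limit (5.95% of all genes did), against 1 with trend and robust eBayes (5.85%), 7 with array weights (17.4%), 6 with the replicate block (5.3%), 1 with neutrophil markers (2.66%) and 2 to 5 with an array omitted (2.9% to 12.7%). Whether the shared replicate numbers paired the samples was not settled. Deviations of same-numbered arrays from their group means correlated at 0.30, 0.10 and -0.12 across genes above background. The highest correlation was between CD37KO replicate 3 and WT replicate 1 (0.37), and CD37KO replicate 2 correlated best with WT replicate 3 (0.30). Deviations around means of 3 arrays cannot exclude pairing. With the background line at the 90th or 99th percentile, 9 axis genes were above it, as with the 95th. Log2 changes of 0.25 were rarely detected after adjustment in simulated data with 3 arrays a group.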
